A study of Homo sapiens with 9 samples.

Results

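In RKO cells, 62 genes gave a bright signal on the 5-aza-dC array at probes that were not well above background on any siRNA array. They were chosen by measured values. A probe was taken when the scanner software did not flag it as well above background on any of the 8 siRNA arrays, flagged it so on the 5-aza-dC array, and gave it a signal there of at least 2 times that array's 75th percentile. A probe without that flag is called below background here, although its signal can be faint rather than absent. Names beginning with MAGE, GAGE, PAGE, XAGE, SSX, SPANX, CTAG, PCDH, HOX, KRT or XLOC_ were left out, which removed 3 probes that otherwise met the rule. This left 68 probes of the 50599 on the array, and 62 of its 36337 gene names. Of the 14521 probes that could have met the rule on the siRNA arrays, the 68 are 0.468%. The difference between the 5-aza-dC array and the siRNA arrays is therefore how the genes were picked, and it is described here without a test.

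RKO is a colorectal cancer cell line. In the siRNA arms, cells were transfected for 72 h with a control siRNA (siCONT) or with an siRNA against UHRF1 (siUHRF1), then received ethanol vehicle or 300 nM of trichostatin A (TSA) for 24 h more. The groups are called siCONT and siUHRF1 with vehicle, and siCONT + TSA and siUHRF1 + TSA with the inhibitor, and each has 2 arrays. UHRF1 was depleted with siUHRF1-1 in each replicate 1 and with siUHRF1-2 in each replicate 2. The 5-aza-dC group is 1 array of cells that had no siRNA and were exposed to 1 µM 5-aza-2'-deoxycytidine (5-aza-dC, decitabine) for 72 h. It has no vehicle array of its own, so the siCONT arrays serve as its background although they also differ from it in transfection and in time. The arrays of a UHRF1 group thus come from separate transfections, and their spread includes the difference between the siRNAs. For the siCONT groups nothing in the labels says that the arrays came from separate cultures, so their spread may be technical.

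5-aza-dC is a cytidine analogue that is built into DNA and traps the DNA methyltransferases, so that methylation is lost as cells divide. UHRF1 recruits DNMT1 to newly replicated DNA and maintains the same methylation, whereas TSA blocks histone deacetylases. Methylation at CpG dinucleotides is known to keep germline genes, some placental and embryonic genes, and in many cancers tumor suppressor genes silent. Total RNA of the whole culture was hybridized, so few cells with much of a transcript cannot be told apart from many cells with little.

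The 5-aza-dC array differed from the others in more than the drug. The 8 siRNA arrays shared 1 slide and 1 scan, and the 5-aza-dC array came from a different slide with its own scan, so slide and drug cannot be told apart. The 75th percentile of its probe signals was 554, against 170 to 222 on the siRNA arrays, and 51.6% of its probes were well above background against 43.6% to 46.5%. The lowest signal flagged as well above background was 27.7 on the 5-aza-dC array and between 12.9 and 15.1 on the siRNA arrays. Relative to the 75th percentile, the median difference of all probes between the 5-aza-dC array and siCONT was -0.44 on the log2 scale, and relative to the spike-in probes it was -2.38. UHRF1 itself, at its brighter probe, gave signals of 1816 and 1837 in siCONT, 433 and 292 in siUHRF1, and 223 and 178 in siUHRF1 + TSA, so that it was lower on all 4 arrays with an siRNA against it. Of the 26 epithelial and colon markers, 12 were below background on all 8 siRNA arrays, while KRT18 gave 12117 and 12432 and CDX2 gave 779 and 757 on the siCONT arrays. EPCAM, at 29.3 and 3.53, and CDH1, at 3.29 and 3.58, were near background in siCONT.

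RefSeq, on GRCh38.p14, gives windows upstream of the transcription start for 37 of the 62 gene names. That is 59.7% and under the 80% needed, so any comparison of CpG content over all 62 genes is void, and the windows are described gene by gene. The windows of 5 genes are shown because they span the range from none to many CpG dinucleotides, the sites that 5-aza-dC acts on. Each is the 250 bases before a start, 5′ to 3′ on the strand of the gene, with every CG in capitals. PRAMEF4 is chr1:12886202-12886451 on the minus strand, TRIM49B (LOC283116 on the array) is chr11:49028573-49028822 on the plus strand, and DAZL is chr3:16605424-16605673 on the minus strand, 1 of the windows listed for it. TDRD9 is chr14:103928206-103928455 and TPTE is chr21:10521333-10521582, both on the plus strand.
PRAMEF4: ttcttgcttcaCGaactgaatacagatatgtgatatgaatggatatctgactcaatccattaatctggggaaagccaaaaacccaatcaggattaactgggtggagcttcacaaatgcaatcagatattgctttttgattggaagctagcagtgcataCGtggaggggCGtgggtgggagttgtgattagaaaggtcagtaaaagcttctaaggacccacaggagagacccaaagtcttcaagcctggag
TRIM49B: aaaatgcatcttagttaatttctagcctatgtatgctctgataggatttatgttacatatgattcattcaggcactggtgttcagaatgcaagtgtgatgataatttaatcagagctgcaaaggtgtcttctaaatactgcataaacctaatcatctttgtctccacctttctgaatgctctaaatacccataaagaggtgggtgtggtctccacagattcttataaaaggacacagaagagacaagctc
DAZL: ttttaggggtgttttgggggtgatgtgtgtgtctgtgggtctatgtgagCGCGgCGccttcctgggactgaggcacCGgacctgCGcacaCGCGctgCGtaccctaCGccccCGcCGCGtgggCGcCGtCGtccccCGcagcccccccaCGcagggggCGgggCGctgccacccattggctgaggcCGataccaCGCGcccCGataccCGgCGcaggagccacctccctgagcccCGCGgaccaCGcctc
TDRD9: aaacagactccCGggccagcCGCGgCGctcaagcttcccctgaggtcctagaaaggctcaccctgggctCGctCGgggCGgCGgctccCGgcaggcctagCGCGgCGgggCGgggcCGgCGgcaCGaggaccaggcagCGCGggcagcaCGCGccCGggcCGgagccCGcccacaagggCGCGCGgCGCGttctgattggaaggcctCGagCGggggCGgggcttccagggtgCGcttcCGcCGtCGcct
TPTE: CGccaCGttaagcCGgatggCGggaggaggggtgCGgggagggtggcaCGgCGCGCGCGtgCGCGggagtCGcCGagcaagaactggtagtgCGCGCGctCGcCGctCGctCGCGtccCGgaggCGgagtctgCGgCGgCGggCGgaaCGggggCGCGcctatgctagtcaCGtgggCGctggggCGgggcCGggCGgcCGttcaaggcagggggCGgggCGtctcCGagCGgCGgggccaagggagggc

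The PRAMEF4 window holds 3 CG and the TRIM49B window 0, whereas the windows of DAZL, TDRD9 and TPTE hold 28, 35 and 42. Among all 35116 RefSeq windows of the same length, 93.9% hold at least 1 CG, the median is 11, and 1.38% hold as many as TPTE. All 8 PRAME family genes have a window, and these hold between 1 and 5 CG, a count that 38.1% of all windows do not exceed. The 12 windows of 10 germline and oocyte genes hold between 11 and 42. Methylation was not measured on these arrays, so the windows show where CpG dinucleotides lie and not whether they were methylated.

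**Figure D1:**
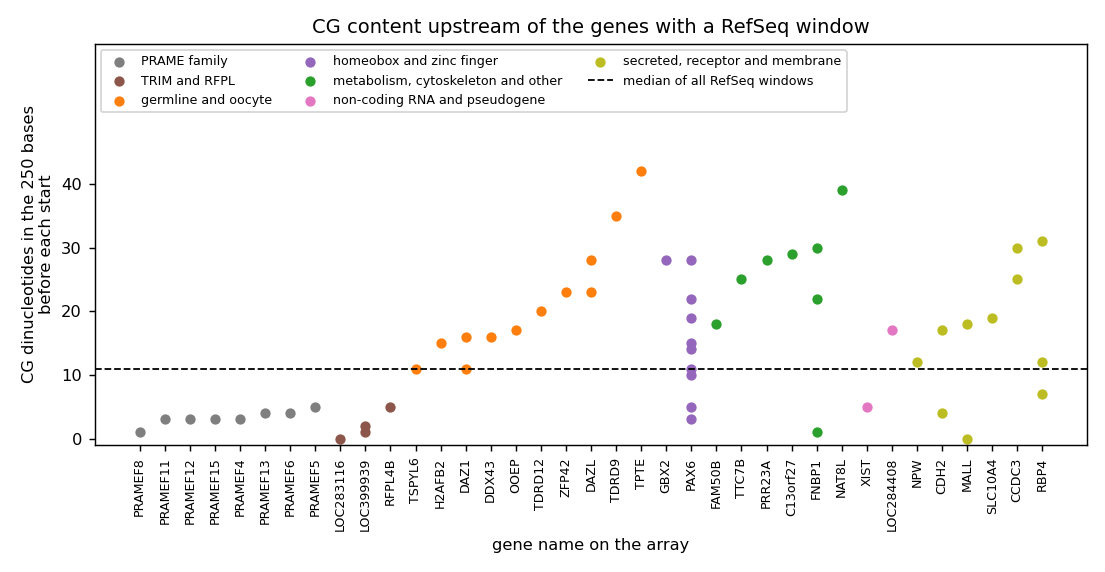
CG dinucleotides (vertical axis, count) in the 250 bases before each RefSeq start of the 37 genes with a window (horizontal axis, 1 column per gene, 1 point per start), coloured by role, with the median of all RefSeq windows, 11, as a dashed line. The PRAME family and TRIM genes lie at 5 or fewer, and the germline genes lie at 11 or more.

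On the 5-aza-dC array the 68 probes gave signals from 1118 to 118028, with a median of 2100.5, which is 3.79 times the array's 75th percentile. On the siRNA arrays their signals lay between 2.60 and 17.1, with medians per array from 3.39 to 5.52. The lowest lay at the floor that the software sets for dim spots, and others were faint signal above it. TPTE, at 17.1 on siUHRF1 + TSA replicate 2, exceeded 14.3, the lowest signal flagged as well above background there, without being flagged itself. No fold can be given for a probe that is below background on 1 side, so lower limits were computed with each siCONT array put at the lowest signal it flagged as well above background. After scaling to the 75th percentile, the 5-aza-dC signal was at least 27.3-fold to 295-fold higher than siCONT at 67 of the probes, with a median of at least 50.7-fold. With spike-in probes as the scale, the median over all 68 was at least 13.4-fold. No probe showed the mirror pattern, a signal of at least 2 times the 75th percentile on all 8 siRNA arrays and none well above background on the 5-aza-dC array.

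**Figure D2:**
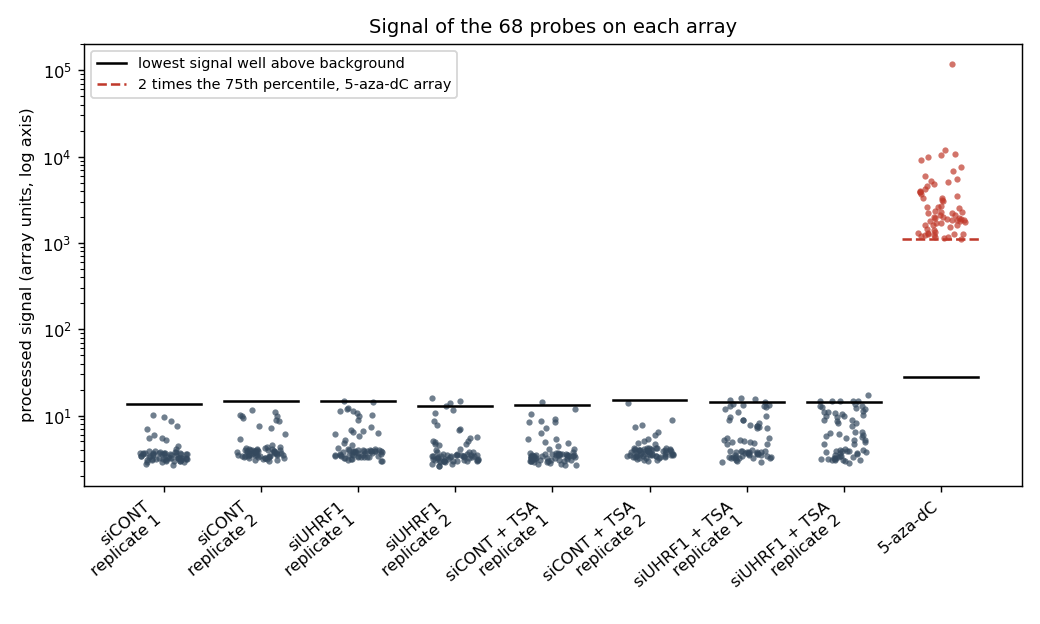
Processed signal (log axis, array units) of the 68 probes on each of the 9 arrays, 1 point per probe, with the lowest signal flagged as well above background on each array (black line) and the threshold of the rule on the 5-aza-dC array (dashed line). The points of the 8 siRNA arrays lie between 2.60 and 17.1 and those of the 5-aza-dC array at 1118 or above, as the rule requires.

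The brightest value, 213 times the 75th percentile, belonged to GPR32, a receptor for the lipid mediator resolvin D1 (chr19:51274664-51274723, hg19). Its 5-aza-dC spot was marked as non-uniform, and its pixels had a coefficient of variation of 0.586, against a 99th percentile of 0.218 among bright spots of that array. No other member carried such a mark on the 5-aza-dC array. The value of GPR32 is therefore given apart from the rest. At the other end, the members just inside the threshold were TDRD9 at 2.02, CDH2 at 2.07 and LOC643988 at 2.10 times the 75th percentile. Just outside lay HENMT1 at 1.96, BEX1 at 1.94 and LCMT2 at 1.90.

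**Figure D3:**
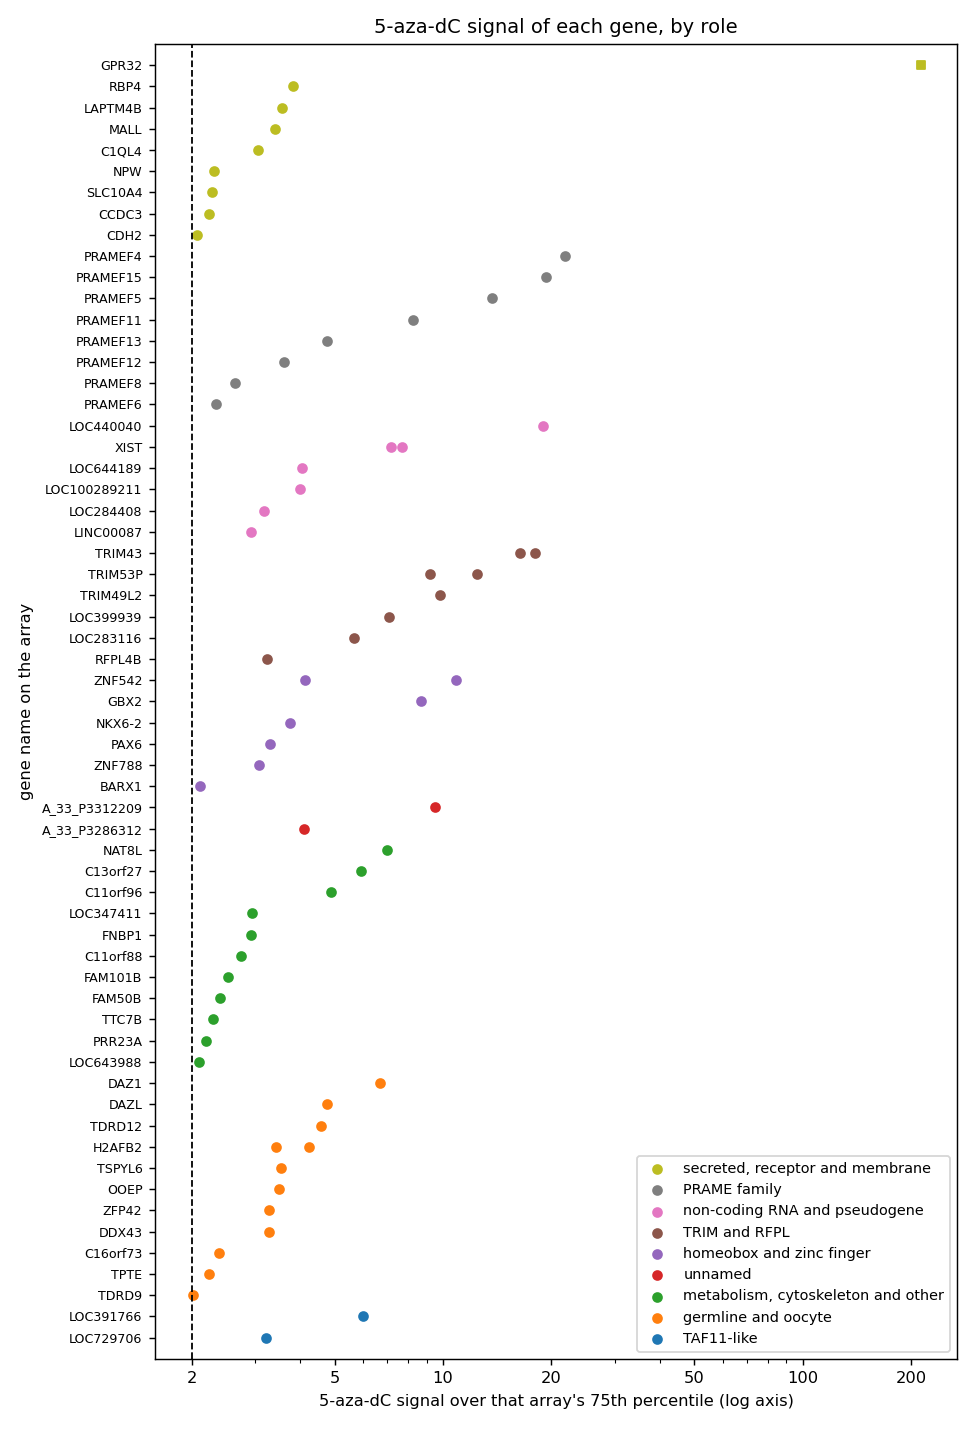
5-aza-dC signal over the 75th percentile of that array (horizontal log axis) for 61 of the 62 gene names (vertical axis), 1 point per probe, coloured by textbook role, with the threshold of 2 as a dashed line and the spot marked as non-uniform (GPR32) as a square. Apart from GPR32, the values run from 2.02 to 21.8, with PRAMEF4, PRAMEF15, LOC440040 and TRIM43 at the top.

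The largest family was that of PRAME, leucine-rich repeat proteins expressed in germ cells and early embryos, of which PRAME itself is a tumor antigen. The 8 member genes were PRAMEF4, PRAMEF5, PRAMEF6, PRAMEF8, PRAMEF11, PRAMEF12, PRAMEF13 (PRAMEF14 in RefSeq) and PRAMEF15. PRAMEF4 gave 3.18 and 3.45 in siCONT, 3.40 and 2.96 in siUHRF1, 3.04 and 3.43 in siCONT + TSA, 3.25 and 8.86 in siUHRF1 + TSA, and 12077 on the 5-aza-dC array. Its highest siRNA value, on siUHRF1 + TSA replicate 2, was still below 14.3, the lowest signal flagged as well above background on that array. PRAMEF15 behaved alike, with siRNA signals from 2.94 to 8.12 and 10710.1 on the 5-aza-dC array. The probes of PRAMEF4 and PRAMEF15 share at least 20 bases in a row, so their transcripts cannot be separated with certainty. Probes were compared only with other probes of the array. Whether other member probes also bind transcripts of related genes was not tested, so the members of a family may not be separate signals. PRAMEF6 was the dimmest member of the family, at 1295 on the 5-aza-dC array.

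The PRAMEF genes that missed the rule mostly differed in brightness. The array holds 20 probes for 17 PRAMEF names, and 19 of these were below background on all 8 siRNA arrays. Of those 19, 17 were well above background on the 5-aza-dC array, which leaves PRAMEF16 at 9.20 and PRAMEF22 at 27.9. The 17 include the 8 member probes, for which the rule required it. PRAMEF1 reached 1.82 times the 75th percentile. The exception on the siRNA side was a second probe of PRAMEF5, which was well above background on all 8 siRNA arrays, at 19.7 to 36.7, and gave 18344.5 on the 5-aza-dC array. For PRAMEF5 the description "detected only with 5-aza-dC" thus holds for 1 of its 2 probes.

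The tripartite motif genes of the TRIM43 and TRIM49 groups, ubiquitin ligase-like proteins known from the cleavage-stage embryo, were a smaller family, with a single RFPL gene beside them. TRIM43 gave 3.87 and 4.28 in siCONT, 4.19 and 3.795 in siUHRF1, 3.78 and 4.22 in siCONT + TSA, 4.03 and 11.4 in siUHRF1 + TSA, and 9996 with 5-aza-dC at 1 probe. The other TRIM43 probe gave 9055 with 5-aza-dC and 3.60 to 5.15 on the siRNA arrays. The pseudogene TRIM53P gave 6871 and 5110 at its pair of member probes, TRIM49L2 gave 5444.5, LOC399939 (TRIM49D1) gave 3922 and LOC283116 (TRIM49B) gave 3130. Their relatives TRIM48, TRIM64 and SPRYD5 were below background on the 8 siRNA arrays and gave 616, 830 and 855 with 5-aza-dC, under the threshold. TRIM77P, also below background there, was not lit with 5-aza-dC, at 5.81. TRIM49 itself is no member because it was well above background on both siUHRF1 + TSA arrays, at 32.5 and 39.2, and it gave 18043 with 5-aza-dC. RFPL4B, a ret finger protein-like gene, gave 1797 with 5-aza-dC. Its relative RFPL4A gave 6125 and 9018 but was detected on siRNA arrays, at up to 290 on siUHRF1 + TSA replicate 1. RFPL1 and RFPL2 gave 1519 and 2582 and were each well above background on 1 siRNA array. RFPL3, below background on all 8, gave 253.

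Because several of these families are known from the first cell divisions of the embryo, a list of 19 early embryo genes was added after the members had been seen, and its counts are a description chosen with these results in view. Of the 16 names on the array, 7 were below background on all 8 siRNA arrays, and 6 of the 7 were well above it on the 5-aza-dC array, among them ZSCAN4 at 261 and LEUTX at 704. Over all gene names the share was 11.3%, or 1847 of 16393. MBD3L2, at 9011 with 5-aza-dC and 11.05 and 15.7 in siUHRF1 + TSA, was detected on a siRNA array and so is not among the 7. DUXA, at 8.94, was not well above background on the 5-aza-dC array.

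The germline and oocyte set comprised 11 genes. DAZL and DAZ1, RNA-binding proteins of germ cells, gave 2635 and 3689 with 5-aza-dC. DAZL lay between 2.90 and 4.79 on the siRNA arrays and DAZ1 between 3.18 and 3.67. Of the piRNA pathway, which silences transposons in germ cells, TDRD12 gave 2531 and TDRD9 gave 1118. MEIOB (C16orf73), needed for meiotic recombination, gave 1319, and DDX43, a helicase of germ cells and tumors, gave 1823. OOEP, a maternal factor of the oocyte, gave 1938, and ZFP42 (REX1), a marker of pluripotent cells, gave 1823. H2AFB2, a short histone H2A variant of the testis, gave 2343 and 1898 at its pair of probes. Its relative H2AFB3 gave 8000 but was well above background on 3 siRNA arrays. TSPYL6 and TPTE, genes of the testis, gave 1961 and 1237. The other TPTE probe was well above background on 7 of the 8 siRNA arrays, at 15.4 to 28.1 over all 8, and gave 185 with 5-aza-dC.

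The germline and meiosis list, of 95 names on the array, held 52 that were below background on all 8 siRNA arrays. Of these, 26 of 52 were well above background on the 5-aza-dC array, against 11.3% over all gene names. Members among the 95 were 7 genes, C16orf73, DAZ1, DAZL, DDX43, TDRD12, TDRD9 and TPTE. The rest of the 26 were under the threshold, such as CTCFL at 622, TEX11 at 593, DDX4 at 372 and SYCP1 at 32.4. Other genes of the list were bright with 5-aza-dC but were detected on a siRNA array and so are no members, such as TKTL1 at 28890.5, CT45A1 at 13826 and SOHLH1 at 11516. The list was chosen with earlier results of these arrays known.

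On the list of genes silenced in colorectal and other cancers, including markers of the CpG island methylator phenotype (CIMP), 60 names are on the array and 29 were below background on all 8 siRNA arrays. Of these, 9 (31.0%) were well above background with 5-aza-dC, against the 11.3% of all gene names. NPTX2, a neuronal pentraxin, gave 679.99 with 5-aza-dC, HLTF, a helicase-like transcription factor, gave 613.5, and CDO1, cysteine dioxygenase, gave 512. These 3 were under the threshold and are not members.

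Transcription factors of development were a smaller set. GBX2, a homeobox gene of the midbrain-hindbrain boundary, gave 4819 with 5-aza-dC and 15.5 and 3.16 in siUHRF1 + TSA, and NKX6-2, of the ventral neural tube, gave 2079. PAX6, the regulator of eye development, gave 3.18 and 3.41 in siCONT, 3.68 and 2.97 in siUHRF1, 3.06 and 3.44 in siCONT + TSA, 13.6 and 13.7 in siUHRF1 + TSA, and 1832 with 5-aza-dC. Of the other PAX6 probes, 1 gave 352 with 5-aza-dC and the remaining ones, at 14.2 and 9.13, were not well above background on any array. The zinc finger genes were ZNF542 (a pseudogene in RefSeq), at 6005 and 2292, and ZNF788, at 1703. BARX1, a homeobox gene of the stomach mesenchyme, gave 1168.

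Secreted, receptor and membrane proteins included RBP4, the retinol carrier of plasma, at 2122 with 5-aza-dC. It was the 1 member among 31 liver and plasma protein genes, of which 17 were below background on the siRNA arrays. CDH2 (N-cadherin) gave 1147, MALL 1890, LAPTM4B 1970.3 (its other probe was well above background on 4 siRNA arrays), C1QL4 1699, NPW (neuropeptide W) 1279, SLC10A4 1261 and CCDC3 1235. NAT8L, which makes N-acetylaspartate, gave 3871. FNBP1, a membrane-bending protein, gave 1617, and C11orf96 gave 2701. TEX30 (C13orf27) gave 3270.1, and its siRNA signals, 4.70 to 15.3, were among the highest of the set. The others of mixed function were MPC1L (LOC347411), HOATZ (C11orf88), RFLNB (FAM101B), FAM50B, TTC7B, PRR23A and FNDC10 (LOC643988), with 1165 to 1626 on the 5-aza-dC array. No member came from the interferon, imprinted, endothelial, leukocyte, muscle, neuronal, erythroid or p53 target lists. Only 62 of the 36337 gene names on the array are members, so lists this short can hold none at that share alone. The lists do not hold every gene of their kind, so a member outside them can still be of that kind. High shares of genes lit with 5-aza-dC were not confined to the germline and silenced lists. Of the listed imprinted genes below background on the siRNA arrays it was 8 of 12 (66.7%), all under the threshold, with SGCE at 975 and NDN at 864. Of such p53 targets it was 3 of 5, and of such neuronal markers 6 of 24 (25%). Of 12 epithelial and colon markers below background on the siRNA arrays, 0 were well above it with 5-aza-dC, and of 14 such interferon-stimulated genes it was 1, HERC5.

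The TAF11-like genes of chromosome 5, LOC391766 and LOC729706, gave 3308 and 1788 with 5-aza-dC. Probes without a gene name, A_33_P3312209 and A_33_P3286312, gave 5270.5 and 2282. Non-coding members were led by LOC440040 (GRM5P1, a receptor pseudogene), at 10519 with 5-aza-dC and 2.89 to 10.5 on the siRNA arrays. XIST, the RNA that coats the inactive X chromosome, gave 4262 and 3966 at its pair of member probes. Its other 7 probes disagree: with 5-aza-dC 2 of them gave 5317 and 6942, 4 gave 53.2 to 843, and 1 gave 17.3, not well above background. Both bright ones were also well above background on siUHRF1 + TSA replicate 1, at 19.95 and 19.5. XIST was therefore not absent from every siRNA array. The other non-coding members, LINC00087, ZNF790-AS1 (LOC284408), LINC00624 (LOC100289211) and ACOT4P1 (LOC644189), gave 1618 to 2243 with 5-aza-dC. LINC00087 and ZNF788 likewise had another probe that was well above background on all 8 siRNA arrays, at 68.1 to 115 and 26.97 to 50.6.

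The members were unevenly placed in the genome. Chromosome 1 held 10 of the 62 gene names (16.1%), chromosome 11 held 9 (14.5%) and chromosome 19 held 6 (9.68%). The same chromosomes held 9.78%, 6.34% and 4.68% of the gene names with a probe that could have met the rule. Chromosomes 7, 15, 20 and 22 held none. These shares are counts of genes in few clusters, where probes of related genes may share signal, and were not tested.

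**Figure D4:**
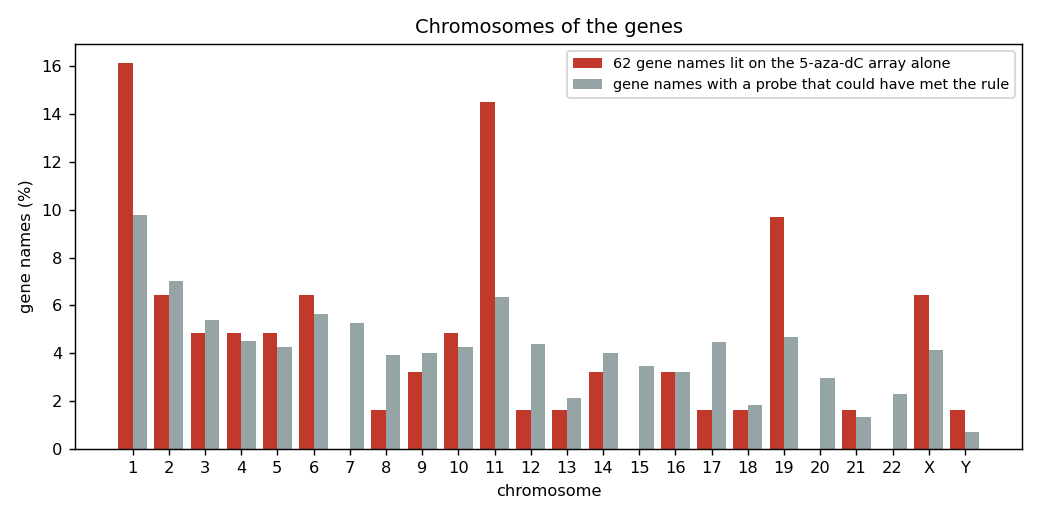
Share of gene names (vertical axis, %) on each chromosome (horizontal axis) for the 62 genes lit on the 5-aza-dC array alone (red) and for gene names with a probe that could have met the rule (grey). Chromosomes 1, 11 and 19 hold 16.1%, 14.5% and 9.68% of the 62 genes.

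Probe positions on hg19 put members within 500 kb of each other in 6 places. All 8 PRAMEF genes lay in 610 kb of chromosome 1, chr1:12837810-13447688. Of the 22 probes that the array has in that interval, 20 were below background on the siRNA arrays and 18 of these were well above it with 5-aza-dC. The 18 include the 8 member probes, for which the rule required both. LOC399939, TRIM53P and TRIM49L2 lay in 146 kb of chromosome 11, chr11:89660180-89806207, where all 7 probes were below background on the siRNA arrays and lit with 5-aza-dC. Of these 7, 4 are member probes and met this by the rule. Over the array, 12.8% of the other probes that could have met the rule were lit with 5-aza-dC. On chromosome 5, LOC391766, LOC729706 and an unnamed probe, A_33_P3312209, lay in 134 kb, chr5:17498695-17632603. That interval has 8 probes, of which 4 were well above background on a siRNA array, among them both other probes of LOC729706. The probes of LOC391766 and A_33_P3312209 share at least 20 bases in a row, so they may read the same transcripts. OOEP and DDX43 were 48.6 kb apart from end to end on chromosome 6, chr6:74078354-74126996. The 1 other probe in that interval was detected on a siRNA array.

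On chromosomes 16 and 19 the members within 500 kb lay among probes that were mostly detected on a siRNA array. Neither pair was adjacent in RefSeq gene order. C16orf73 and NPW (chr16:1884099-2070239) were the members among 30 probes, 24 of which were well above background on a siRNA array. Of the 6 below background on all 8 siRNA arrays, 4 were lit with 5-aza-dC, 2 of them the member probes. LOC644189 (ACOT4P1) and LOC284408 (ZNF790-AS1) at chr19:36913717-37318993 were the members among 29 probes, 25 of which were detected on a siRNA array. Over the whole array, 23999 of the 50599 probes were below background on all 8 siRNA arrays.

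Other probes of the same genes are described here and are no independent check. Their genes were picked because another probe was lit on the same 5-aza-dC array, and several of these probes belong to XIST and PAX6. The array has 27 further probes for 17 of the member genes. Of the 16 that were below background on all 8 siRNA arrays, 13 (81.3%) were well above background with 5-aza-dC, against 12.8% of the 14453 other probes that could have met the rule. The remaining 11 probes, of 9 genes, were well above background on at least 1 siRNA array, and 4 of them on all 8. Those 4 belong to PRAMEF5, NAT8L, LINC00087 and ZNF788. For NAT8L the second probe gave 416 and 404 in siCONT and 2540 with 5-aza-dC. Probes of 1 gene share its RNA and its array, so they are no replicates of the treatment. For the 45 names with no other probe, the single spot on a single array is all there is.

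The siRNA arrays were then compared with each other, a comparison the rule did not make because it treated them alike. Here the weaker flag was used, which marks a spot as significantly above its local background. On the siCONT arrays it marked 14 and 15 of the 68 probes, on siUHRF1 22 and 24, on siCONT + TSA 17 and 16, and on siUHRF1 + TSA 36 and 46. The shares in siUHRF1 + TSA, 52.9% and 67.6%, were above the 34.5% and 34.6% of the other probes that could have met the rule on the same arrays. In siCONT the 68 were below the others, at 20.6% and 22.1% against 31.0% and 28.4%. On siCONT + TSA the 68 were also below the others, at 25% and 23.5% against 31.4% and 26.4%. On siUHRF1 the replicates differed in direction, with 32.4% against 30.4% and 35.3% against 36.4%.

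**Figure D5:**
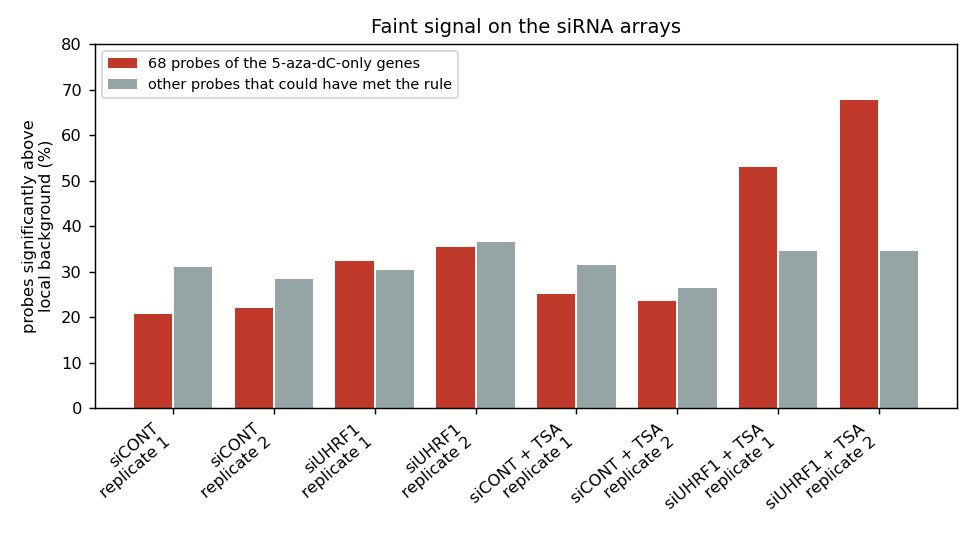
Share of probes (vertical axis, %) significantly above local background on each of the 8 siRNA arrays (horizontal axis), for the 68 probes (red) and the 14453 other probes that could have met the rule, that is, below background on all 8 siRNA arrays and with no excluded name (grey). The siUHRF1 + TSA arrays reach 52.9% and 67.6% of the 68 probes, above all other siRNA arrays.

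Probe by probe, 17 of the 68 (25%) were marked on both siUHRF1 + TSA arrays and on neither siCONT array, against 4.99% of the 14521 probes that could have met the rule. The opposite pattern was found for 0 of the 68 and for 2.2% of those probes. In all, 8 probes were marked on no siRNA array, among them those of RFPL4B, PRAMEF6 and PRAMEF8. Another 4 were marked on all 8, those of C13orf27 (TEX30), FNBP1, LOC284408 and 1 of H2AFB2. The rule kept only probes that stayed under the stronger flag, so these shares describe faint signal under a ceiling.

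In limma's fit to all 50599 probes of the 8 siRNA arrays, 6 of the 68 member probes (8.82%) were higher in siUHRF1 + TSA than in siCONT at an adjusted p below 0.05, and 0 were lower. In the same comparison 4.86% of all probes and 1.36% of the 14521 probes that could have met the rule were higher. The 6 were PAX6 (limma adjusted p = 0.00101), 1 of TRIM53P (0.0115), LOC729706 (0.0147), ZFP42 (0.0353), 1 of XIST (0.0431) and OOEP (0.0438). TRIM53P at that probe gave 5.15 and 3.97 in siCONT and 11.9 and 11.1 in siUHRF1 + TSA. OOEP gave 2.91 and 3.13 in siCONT and 8.76 and 14.8 in siUHRF1 + TSA. In these 6 the siUHRF1 + TSA arrays lay above both siCONT arrays, and no fold is given because neither side is well above background. The siCONT values of PAX6, LOC729706, ZFP42 and OOEP lay at the floor that the software sets. The spread of such values is not that of measured replicates, so these p-values, and those against siCONT + TSA below, do not measure replicate variation of the transcripts. With normexp background correction none of the 6 calls remained. In that setting 0.55% of all probes and 0% of those that could have met the rule were higher. The count moved when an array was left out, which leaves 1 array in a group. Without siCONT replicate 1 or 2 the median log2 difference of the 68 was 0.36 or 0.52, against -0.038 or 0.044 over all probes. Without siUHRF1 + TSA replicate 1 or 2 it was 0.43 or 0.12, against 0.022 or -0.032.

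Against siCONT + TSA, the siUHRF1 + TSA arrays were higher at 2 member probes (2.94%), those of PAX6 (limma adjusted p = 0.00175) and TRIM53P (0.0202), where 1.15% of all probes and 0.551% of those that could have met the rule were higher. UHRF1 depletion alone raised 0 of the 68 against siCONT in limma. Higher were 0.14% of all probes and 0.034% of those that could have met the rule. At an unadjusted p below 0.05, 2 of the 68 were higher and 2 lower, or 2.94% each. Of all probes, 3.94% and 2.93% were, and 1.98% of those that could have met the rule were higher. TSA alone raised 0, with 0.953% of all probes and 0.248% of those that could have met the rule higher. At an unadjusted p below 0.05 it was 1 (1.47%), against 9.39% and 3.99%. With adjusted shares this low, 0 among 68 is near the share of comparable probes. For siUHRF1 + TSA against siCONT + TSA, 0 member probes were called with normexp. In that setting 0.11% of all probes and 0% of those that could have met the rule were higher. The count for that comparison also moved when an array was left out. These comparisons share the siCONT or siCONT + TSA arrays. The median difference of the 68 probes from siCONT was 0.39 on the log2 scale in siUHRF1 + TSA, -0.11 in siUHRF1 and 0.13 in siCONT + TSA. Over all probes it was -0.00050, -0.08 and 0.12, and these medians rest largely on floor values.

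Counting from siCONT alone gave more genes. In all, 164 probes of 152 gene names lacked signal above background on the pair of siCONT arrays and met the 5-aza-dC threshold. The 96 that are no members were above background elsewhere by definition. Of these, 93 were so on at least 1 siUHRF1 + TSA array. On at least 1 siUHRF1 array it was 46, and on at least 1 siCONT + TSA array 9. In 46 of the 96, siUHRF1 + TSA was the one group with such an array. The matching shares of all probes below background in siCONT were not computed, so these counts are no result about the 96. In limma, 4.86% of all probes were higher in siUHRF1 + TSA than in siCONT, against 0.14% in siUHRF1 and 0.953% in siCONT + TSA. Leaving siUHRF1 + TSA replicate 2 out of the rule raised the number of gene names from 62 to 76, and leaving out any other siRNA array gave 62 or 63.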

How the data were processed

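RNA of RKO cells was measured on 9 Agilent 1-colour arrays (SurePrint G3 Human GE v2). The authors extracted the spots with Agilent Feature Extraction 10.7.3.1, and the deposited signals are linear intensities, background-subtracted and detrended, with surrogate values for dim spots and no normalization between arrays. The deposited value table holds the same intensities rounded. The paper names GeneSpring; its normalization is not given in the sources used here. Probe positions are hg19 per the file headers. Names came from the array files, and RefSeq gave a name to 61 of the 68 member probes.

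Spots of a probe were averaged, and every spot had to meet the rule. For limma 3.58.1 (R 4.3.3), each array's 75th percentile was subtracted from its log2 signals, outlier spots were dropped unless a probe had no other, no filter on dim probes was used, and p-values were adjusted by Benjamini-Hochberg over all probes. The fit was tested on simulated data without a surrogate floor, so that test does not cover probes at the floor. The number of arrays limits the precision. Alternatives covered the rule, scaling, background correction, priors, the replicate block, left-out arrays and the methods' t-test.

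The members and lists were chosen with earlier results of these data known. Named are the 25 brightest members with a symbol, members of lists, families and neighbours, and those beside the threshold; other genes were named after their values were seen. The values of 1 member gene are not reported here.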

Additional observations from a re-analysis of the deposited data

How the results depend on the processing

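The number of gene names, 62, was 143 with a threshold at the 75th percentile, 28 at 4 times it, 8 when the siRNA arrays also had to lack the weaker flag, and 152 when the siCONT arrays alone had to be below background. It ranged from 62 to 76 with each siRNA array left out, and was 43 with the percentile taken over spots. The median lower limit over siCONT, 51.2-fold, was 55.2 with median scaling, 13.4 with spike-in scaling, 48.8 with quantile normalization, 10.66 with normexp and 198.5 with no floor. It was 49.9 and 52.7 with each siCONT array left out.

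Of the 68 probes, 6 were higher in siUHRF1 + TSA than in siCONT. The count was 0 with normexp, 3 with spike-in scaling (2.13% of all probes were higher), 16 at an unadjusted p (12.1% of all probes and 4.5% of those that could have met the rule), 0 with the methods' test after Benjamini-Hochberg adjustment, and 3 to 14 with each array left out (3 without either siCONT replicate, 14 without siUHRF1 + TSA replicate 1). Against siCONT + TSA, the 2 higher became 0 with normexp (0.11% of all probes were higher) and 1 with a trended and robust prior (1.12%). It was 1 with only the arrays compared (0.44% of all probes) and 13 at an unadjusted p (6.3%). The methods' test gave 7 before adjustment (5.06% of all probes) and 0 after it (0%). Here too the count moved when an array was left out. The counts of 0 for siUHRF1 and for siCONT + TSA against siCONT were 2 and 1 at an unadjusted p. Of all probes, 3.94% and 9.39% were higher there, and of those that could have met the rule 1.98% and 3.99%. With the methods' test before adjustment, 3.21% and 12.1% of all probes and 1.23% and 2.02% of those that could meet the rule were higher. The counts of members were then 3 and 1 (4.41% and 1.47% of the 68). They were 0 in the other settings.

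With the replicate block, 4 probes were higher in siUHRF1 + TSA than in siCONT, where 4.09% of all probes were higher. Against siCONT + TSA it was 1, where 0.7% of all probes were higher. The labels give no shared batch for a number, except that both UHRF1 groups carry the same siRNA at the same number, and deviations correlated at 0.456 between them and at -0.0400 to 0.0654 between other pairs of groups, so the samples were not treated as paired. A filter on dim probes left none of the 68, and slide and scan could not be blocked because the siRNA arrays share them. CpG content of the whole window was not run, because the comparison was void. Signals of a few units lie at the surrogate floor, which limits any order among the siRNA arrays, and the 5-aza-dC array has no replicate.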
